A study of Arabidopsis thaliana with 18 samples.

Results

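Alternative splicing in the first leaf was compared between Bur-0 and Ler-1, both accessions (inbred lines) of Arabidopsis thaliana. The 4 libraries were 2 of Bur-0 and 2 of Ler-1, of 18 in the series, and no library of the standard accession Col-0 entered the contrast. All plants were untreated 14-day-old seedlings on sucrose medium under long days, with 2 biological replicates per group. Hybrids of Col-0 with Bur-0 (Col-0 x Bur-0) and with Ler-1 (Col-0 x Ler-1), of the same age and with 2 libraries each, share no library with the contrast. Col-0 itself is given beside them only to place the values. The labels do not say which accession was the seed parent of a cross, how many plants a library pooled, or whether leaves were taken at 1 time of day.

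A plant intron usually starts with GT at its donor site and ends with AG at its acceptor site, and the spliceosome can choose among competing sites, skip an exon or leave an intron in place. The letters at those sites and in the intron differ between accessions, as do the genes that encode the splicing machinery. In a hybrid, the alleles of both parents are read by the same machinery in the same nuclei.

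Each event is a choice between 2 forms of a transcript. Which count belongs to which form was inferred from the annotation. The second form was taken to keep more sequence than the first: the intron is retained rather than spliced, the intron removed is the shorter one, or the exon is included. PSI is the share of the second form (its reads over the total of both forms plus 1), given here in percent, and a difference is in percentage points, Bur-0 minus Ler-1. Because of the added 1, PSI stays below its maximum even where every read is of the second form. The share of a retained intron is set against a single pair of splice sites. Reads spliced at other sites of the same intron are left out of it. Lengths in bases are those of the Col-0 reference unless an assembly is named. The event lists held 6171 events for Bur-0 and 5916 for Ler-1, of which 5666 were in both lists. At least 10 reads in each of the 4 libraries were found for 5356 events in 2668 genes, and 310 shared events fell short. Calls were made with edgeR's two-sided quasi-likelihood test, at an adjusted p (Benjamini-Hochberg, over all 5356 events) below 0.05.

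The libraries held 5124772 and 5141043 event reads in Bur-0, against 4817258 and 5752819 in Ler-1, with a median of 98.5 to 109 reads per tested event. Library pairs differed by a median of 1.95 points in Bur-0 and 1.90 points in Ler-1. RBCS1A, which encodes the small subunit of the carbon-fixing enzyme Rubisco, took 15.1% and 16.2% of the event reads in Bur-0, against 24.3% and 24.1% in Ler-1. All 5 mesophyll markers had listed events, whereas 14 of the 16 markers of other leaf cell types had none. The other pair, FAMA of guard cells and ATML1 of the epidermis, together had 274 and 234 reads in Bur-0 and 245 and 355 reads in Ler-1. A gene without a listed event may still be expressed, and in whole leaves fewer cells of a type and less RNA per cell cannot be told apart. The part of these shifts in the splicing differences was not tested.

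Bur-0 and Ler-1 leaves differed in 371 of the 5356 events (6.93%), in 265 genes (9.93% of those tested). PSI was higher in Bur-0 in 225 events (4.2%) and lower in 146 (2.73%), with at least 10 points between the means in 250 of them (4.67%), 163 higher and 87 lower. The whole distribution was shifted slightly the same way, since the median odds of the second form over all tested events were 0.13 higher in Bur-0 on the log2 scale. When each form was scaled by TMM, which brought that median near 0, the split was 197 higher and 167 lower. Called events had a median absolute difference of 17.1 points, against 2.40 points over all tested events. In all 371 the libraries of the accessions did not overlap, which also held for 50.7% of the tested events.

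The differences ran from near-complete switches to fractions of a point. In 51 events of 39 genes the means lay at least 50 points apart, with 31 higher and 20 lower in Bur-0, and in 35 events they lay under 2 points apart. One form had no read at all in 1 of the accessions in 165 called events. The last event called, a donor choice in AT2G46915, fell by 12.96 points (adjusted p = 0.0494), and the first event past the threshold, in AT5G42220, had a difference of 11.8 points (adjusted p = 0.0501).

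**Figure D1:**
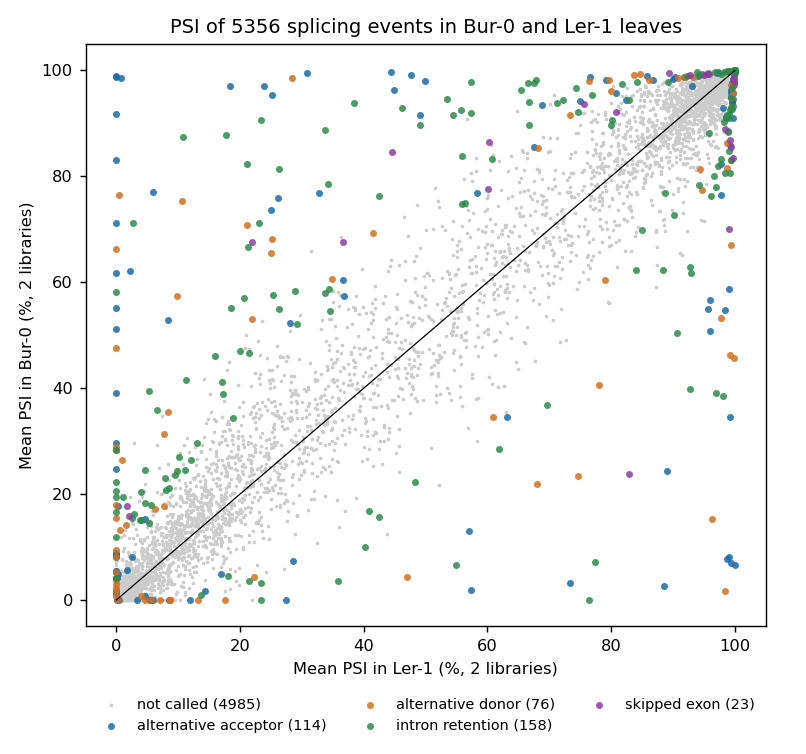
Mean PSI (%) of the 5356 tested events in Ler-1 (x axis) and Bur-0 (y axis), 2 libraries each, with the 371 called events coloured by type. Called events lie along both edges, where 1 accession uses a form that the other hardly uses, and 225 of them lie above the diagonal.

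A class with a high called share was that of splice sites whose reference letters are not those of a splice site, and it was picked out after its values had been seen. Among the alternative donors and acceptors tested, 39 had 1 site with GT or GC and AG in the TAIR10.1 reference (the Col-0 genome) and 1 site without them. Of these 39, 20 (51.3%) were called, against 170 of the other 2979 (5.71%). How events were listed is not given, and such a site may be listed only because reads of an accession showed it. The shares are therefore not like for like, and no conclusion is drawn from their difference. In 16 of the 20 the site was used in Bur-0 and had no read in Ler-1 or in Col-0, and in 3 it was used in Ler-1 with no read in Bur-0 or Col-0. In all 16, the Col-0 x Bur-0 hybrid had reads of the site and the Col-0 x Ler-1 hybrid had none. The reference letters around the 2 sites are shown for 8 of these events. They are RefSeq TAIR10.1, on the transcript strand, and the capitals mark the bases kept in the second form and removed with the intron in the first. In the acceptors, the site in question lies just before the capitals, and in AT5G14920 and PHB3 the donor in question opens them.
AMY3 (chr1:26291692-26291719, minus strand): ttgctttctcTTGGATCTGTAGgtgccc
CID7 (chr2:11190615-11190634, minus strand): tcttttttttGCAGattttg
AT2G38330 (chr2:16065524-16065547, plus strand): ggtttgtaatTTTTTTAGgattca
AT4G13050 (chr4:7618825-7618843, plus strand): tgtatttttgTAGactagc
UMAMIT47 (chr3:10452001-10452025, plus strand): caaaacaaaaAAAGAACAGatcaat
AT5G26850 (chr5:9449352-9449373, plus strand): tactcaaaatTTTCAGgtggat
AT5G14920 (chr5:4826795-4826823, plus strand): aatgagGAATCCAACGCCTTAgtacgttt
PHB3 (chr5:16315563-16315584, minus strand): gatcagATATGATGgtatgtaa

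AMY3, a plastid alpha-amylase of starch breakdown, showed the largest rise in Bur-0. The upstream acceptor in its coding span, which adds 12 bases to the transcript, had a PSI of 99.2% and 98.8% in Bur-0, against 0 in both Ler-1 libraries (adjusted p = 9.30e-09). There were 1291 reads of it among 1302 in Bur-0 and 0 among 1348 in Ler-1, which allows a share of up to 0.223% in Ler-1. Bur-0 thus used the acceptor after the letters TC of the reference almost alone, and Ler-1, like Col-0 with 0 of 1277 reads, only the AG that closes the capitals. In the Col-0 x Bur-0 hybrid the 2 acceptors were used about equally, at 57.6% and 54.1%, against 0 in both Col-0 x Ler-1 libraries (adjusted p = 3.27e-05).

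CID7 encodes a protein that binds the poly(A)-binding protein. Its upstream acceptor, 4 bases away in the 5′ untranslated part, had a PSI of 81.6% and 84.6% in Bur-0, against 0 of 507 reads in Ler-1 (adjusted p = 3.76e-07). The reference has TT there. Hybrids showed 37.3% and 36.7% in Col-0 x Bur-0, against 0 of 509 reads in Col-0 x Ler-1. AT2G38330, a transporter of the MATE efflux family, used an acceptor 8 bases upstream at 76.4% and 66.0% in Bur-0, against 0 of 191 reads in Ler-1 (adjusted p = 8.95e-06). The frame-shifting stretch of 8 bases was thus in most Bur-0 transcripts of this gene and in none of the Ler-1 reads.

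The next 3 acceptors were used alongside the reference one in Bur-0. AT4G13050, an acyl-carrier thioesterase that releases fatty acids in plastids, had a PSI of 64.9% and 58.7% in Bur-0, against 0 of 204 reads in Ler-1 (adjusted p = 7.51e-06). UMAMIT47, of a family of amino acid transporters, had 50% and 52.2% in Bur-0, against 0 of 239 reads in Ler-1 (adjusted p = 9.37e-05). AT5G26850, which the annotation calls uncharacterized, had 48.4% and 61.8% in Bur-0, against 0 of 79 reads in Ler-1 (adjusted p = 0.00056). In UMAMIT47 the same intron, of 116 bases, was also retained at 90.4% and 91.0% in Bur-0, against 20.1% and 26.6% in Ler-1 (adjusted p = 5.73e-06).

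In 2 further genes the Bur-0 donor lay before the reference one, so that PSI was lower in Bur-0. AT5G14920, of the gibberellin-regulated GASA family, had a PSI of 45.8% and 45.6% in Bur-0, against 99.8% in both Ler-1 libraries (adjusted p = 5.40e-07). Bur-0 therefore dropped 15 coding bases in 414 of 764 reads, and Ler-1 in 0 of 1118. PHB3, a prohibitin of the inner mitochondrial membrane, had 41.5% and 51.1% in Bur-0, against 99.3% and 99.2% in Ler-1, at a donor in its 3′ untranslated part (adjusted p = 2.48e-05). The class also held small shares, such as an AT donor in the catalase CAT3 with 111 reads and a mean PSI difference of 1.70 points (adjusted p = 0.000213). The 3 sites used in Ler-1 were in DEG15, AT3G26080 and AT1G16180, with 21, 10 and 13 reads and none in Bur-0. The last of the 20, in the dark-inducible gene DIN10, had reads in both accessions.

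At the other large site choices, both sites carry splice letters in the reference. They are shown for 7 events, again with the bases between the sites in capitals.
ZML1 (chr3:7424526-7424555, plus strand): tttgttgcagGACGCAAATCTTGAGgctga
G-TMT (chr1:24135173-24135194, minus strand): ttgaaaaaagATGAAGaggagg
COR27 (chr5:17198601-17198619, minus strand): tgttttaaagCAGaggtat
LARP6a (chr5:18757780-18757799, plus strand): gcaacgGCATTGgtactttt
GTB1 (chr1:24307706-24307735, minus strand): aagGTAACTCGGATCGTTCAGGCTCAGgta
AT1G23130 (chr1:8200710-8200733, plus strand): ttgggtgcagATGGGCAGcccaag
GIP1 (chr4:6039677-6039700, plus strand): aattgtggagTTTAACAGgtgtga

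In ZML1, a GATA-type zinc finger protein, Bur-0 used the upstream acceptor in 152 of 152 reads (PSI of 98.6% and 98.8%). Ler-1 used it in 0 of 57 reads, which allows up to 5.26% (adjusted p = 8.95e-06). Col-0 resembled Bur-0, with 98.7% and 98.5%, so among these 3 accessions the one with the downstream AG was Ler-1. In AT4G38520, a protein phosphatase of the 2C family, an acceptor lay 21 bases upstream in the 5′ untranslated part. It was used at 98.5% in both Bur-0 libraries (130 of 130 reads), against 1.43% and 0 in Ler-1 (adjusted p = 1.71e-06). AT2G32910, with a domain named for development and cell death, had 97.0% and 97.1% in Bur-0 (65 of 65 reads). In Ler-1 it had 26.7% and 10%, where only 14 and 19 reads covered the choice (adjusted p = 0.000394).

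LARP6a, an RNA-binding protein of the La-related family, has a GC donor and, 6 bases further on, a GT donor. PSI of the GT donor was 99.4% and 97.9% in Bur-0, against 27.0% and 29.6% in Ler-1 (adjusted p = 1.26e-06). Most Ler-1 transcripts thus used the GC site and lacked 2 codons. In AT1G14570, a protein with a UBX domain, a 63-base stretch was kept at 94.9% and 95.9% in Bur-0, against 24.3% and 26.0% in Ler-1 (adjusted p = 1.71e-06). G-TMT, the methyltransferase that makes alpha-tocopherol (vitamin E), kept 6 bases at 99.7% and 99.6% in Bur-0, against 47.6% and 41.3% in Ler-1 (adjusted p = 5.73e-06), and was named after its values had been seen. In each of these 3 genes the 6 or 63 bases are whole codons, and among Bur-0, Ler-1 and Col-0 the one apart was Ler-1. C24 and Kro-0, other accessions of the series, had mean PSI values near that of Ler-1 in LARP6a, at 25.3% and 25.8%, and in AT1G14570 Kro-0 did so, at 26.3%.

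Bur-0 stood apart from both Ler-1 and Col-0 in others. ATMAK3, the catalytic subunit of an N-terminal acetyltransferase, kept a stretch of its 5′ untranslated part that is 129 bases long in the reference. PSI was 91.7% and 92% in Bur-0, against 0 of 101 reads in Ler-1 (adjusted p = 1.66e-05). The removed introns measure 239 and 106 bases in the Bur-0 assembly. MGT2, a magnesium transporter, used a donor 52 bases downstream at 75.3% and 77.7% in Bur-0, against 0 and 0.917% in Ler-1 (adjusted p = 1.71e-06). Col-0 had no read of the longer ATMAK3 form among 140 and none of the downstream MGT2 donor among 205. Neither form was particular to Bur-0 in the series. In C24, 13 of 13 reads were of the longer ATMAK3 form, and in Kro-0 0 of 57. The downstream MGT2 donor had 83 of 120 reads in Kro-0 and 0 of 137 in C24. GTB1, an SPT6-like factor of transcript elongation, showed the largest fall. It kept the 24 bases between its donors at 0 and 3.52% in Bur-0, against 99.5% and 97.4% in Ler-1 (adjusted p = 8.60e-07), so that nearly all Bur-0 transcripts lacked 8 codons.

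Falls of over 90 points were also called in 3 genes. AT1G23130, of a lipid-transport superfamily, kept 8 bases at 0.324% and 12.9% in Bur-0, against 99.95% and 99.97% in Ler-1 (adjusted p = 3.52e-06). ATG8E, a ubiquitin-like protein of the autophagy membrane, kept a 170-base stretch across its coding start or end at 0 and 13.9% in Bur-0, against 99.3% and 99.4% in Ler-1 (adjusted p = 9.25e-06). GIP1, a small protein bound to the gamma-tubulin complex, kept 8 untranslated bases at 8.77% and 6.56% in Bur-0, against 98.8% and 98.7% in Ler-1 (adjusted p = 2.30e-06). Read numbers of the pairs differed: AT1G23130 had 601 reads in Bur-0 and 5305 in Ler-1, ATG8E 53 and 304, and GIP1 116 and 156. The Bur-0 libraries had only 18 and 35 reads at the ATG8E choice. In GIP1 it was Ler-1 that differed from Col-0, at 8.54% and 9.41%, and in the other pair it was Bur-0.

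Other large falls lay in 5′ untranslated parts. AT3G26920, a leucine-rich repeat protein, had 0 and 5.26% in Bur-0, against 84.6% and 92.6% in Ler-1, on 16 to 26 reads per library (adjusted p = 0.000318). AT1G17145, a RING-type protein, had 11.1% and 19.4% in Bur-0, against 95.5% and 97.1% in Ler-1 (adjusted p = 0.00018). AT5G37380, of the DnaJ chaperone family, had 0 and 6.25% in Bur-0, against 71.0% and 75.7% in Ler-1, with 16 and 15 reads in Bur-0 (adjusted p = 0.00141). AT1G35340, with a LON protease domain, fell in the coding span, at 30.2% and 39.0% in Bur-0, against 98.8% and 99.5% in Ler-1 (adjusted p = 5.73e-06).

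**Figure D2:**
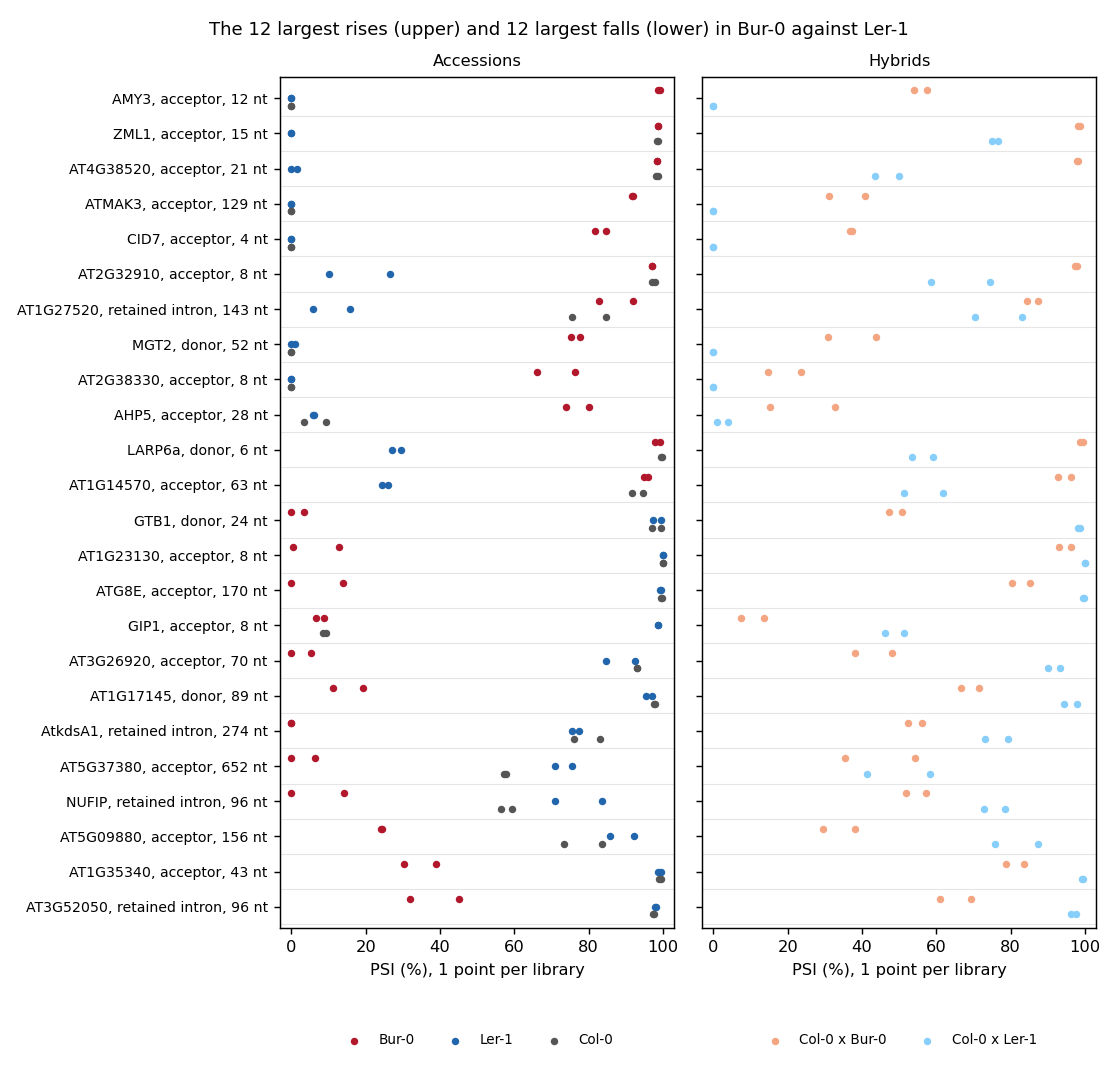
PSI (%) in each library for the 12 largest rises and the 12 largest falls in Bur-0 against Ler-1, 1 event per gene, with Bur-0, Ler-1 and Col-0 on the left and both hybrids on the right. The Bur-0 and Ler-1 points are apart in every row, and in 23 of the 24 rows the hybrid pairs are apart in the same direction.

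Retained introns made up 158 of the called events, 101 higher and 57 lower in Bur-0. Among introns of the annotation, 98 of 1283 were called, 71 higher and 27 lower, and among stretches not annotated as introns, 60 of 738, with 30 in each direction. The intron of 143 bases in AT1G27520, a glycosyl hydrolase, was retained at 92% and 82.8% in Bur-0, against 5.88% and 15.8% in Ler-1, where 16 and 18 reads covered it (adjusted p = 0.000348). AHP5, a phosphotransfer protein of the cytokinin relay, retained an intron of 144 bases at 85.9% and 89.6% in Bur-0, against 17.2% and 18.2% in Ler-1 (adjusted p = 1.17e-05). At the same intron AHP5 also used an acceptor 28 bases upstream at 73.9% and 80.0% in Bur-0, against 5.88% and 5.97% in Ler-1 (adjusted p = 3.21e-05). Beside retention, the spliced form of the 144-base intron had 18 of 160 reads in Bur-0, against 109 of 133 in Ler-1. The acceptor choice is set against the same 18 and 109 reads, so the AHP5 events are not separate measurements. The retained share leaves out the reads of the upstream acceptor, 66 in Bur-0 and 7 in Ler-1.

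AtkdsA1, which makes the sugar KDO of pectin, showed the reverse. Its intron in the 3′ untranslated part (chr1:29906014-29906287) is 274 bases long in the reference and 283 in the Bur-0 assembly. It had no retained read among 167 in Bur-0, against 77.3% and 75.6% in Ler-1 (adjusted p = 3.26e-06). The count of 0 allows up to 1.80% in Bur-0. NUFIP, which the annotation describes as a GATA zinc finger protein, retained an intron at 14.3% and 0 in Bur-0, against 70.9% and 83.7% in Ler-1, with 27 and 16 reads in Bur-0 (adjusted p = 0.00232). AT3G52050, of an exonuclease family, had 31.9% and 45.1% in Bur-0, against 98.0% and 98.1% in Ler-1 (adjusted p = 0.000107). A further 4 introns named after their values had been seen rose in Bur-0. SOS4, a pyridoxal kinase that makes vitamin B6 cofactor and is known for salt tolerance, had 66.4% and 75.9% in Bur-0, against 2.08% and 3.33% in Ler-1 (adjusted p = 7.51e-06). EDM2, a chromatin protein that controls a disease resistance gene, had 61.5% and 54.8% in Bur-0, against 0 of 58 reads in Ler-1 (adjusted p = 0.000454). IREG1, an iron exporter, had 94.9% and 92.7% in Bur-0, against 28.2% and 48.8% in Ler-1 (adjusted p = 0.00103), and PEX11E, of peroxisome division, had 92.7% and 96.3%, against 54.2% and 52.6% (adjusted p = 0.000153).

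Skipped exons gave 23 called events, 14 higher and 9 lower in Bur-0. Inclusion of a 41-base exon of AT1G36070, a WD40 repeat protein, was 66.0% and 69.2% in Bur-0, against 22.2% and 21.6% in Ler-1 (adjusted p = 0.00364). An 80-base exon of PAT1, a GRAS protein of phytochrome A signalling, was included at 69.4% and 70.8% in Bur-0, against 99.0% and 99.1% in Ler-1 (adjusted p = 8.94e-06). Events within 1 gene can be built on common reads. Of the 265 genes, 202 had 1 called event and 63 had 2 or more, and in 16 of them the called events ran both ways.

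The most called events, 7, were in AT5G09880, which the annotation names as a splicing factor of the CC1-like kind. Its 156-base acceptor stretch was kept at 24.4% and 24.2% in Bur-0, against 92.3% and 85.9% in Ler-1 (adjusted p = 9.25e-06). At a donor choice, the site 190 bases downstream was used at 76.5% and 74.3% in Bur-0, against 6.02% and 15.2% in Ler-1 (adjusted p = 1.95e-05). An intron of 409 bases was retained at 36.2% and 43.7% in Bur-0, against 95.5% and 90.0% in Ler-1 (adjusted p = 2.39e-05). Of the 7 events, 4 were higher and 3 lower in Bur-0, but they can share reads and are not separate measurements. The calls of a 485-base acceptor stretch and a 410-base exon of the gene were lost without any 1 of the 4 libraries. For the 156-base stretch the hybrids kept the order, at 29.5% and 38.1% in Col-0 x Bur-0, against 87.5% and 75.7% in Col-0 x Ler-1 (adjusted p = 0.0064).

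Over 11 lists of leaf and signalling genes, 20 of the 92 genes tested (21.7%) held a called event, against 9.93% of all tested genes. The lists were drawn up with earlier results of these data known, so the shares describe the lists only. By events, 30 of 306 were called, against 371 of all 5356 (6.93%). These were 6 of 101 for splicing regulators, 2 of 32 for the clock, 4 of 27 for starch and sugar, and 7 of 26 for light signalling. They were 3 of 15 for hormones, 7 of 78 for photosynthesis, and 1 of 2 for markers of other leaf cell types. The 306 events had a median difference of 0.0029 points, and all 5356 tested events 0.129 points. No event was called among the tested genes of flowering (6), defence (3), abiotic stress (5) and glucosinolates (1).

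Of 25 tested genes of splicing regulators, 4 were called (16%), against 9.93% of all tested genes. By events, 6 of 101 were called, against 6.93% of all tested events, 5 higher and 1 lower in Bur-0. SR30, a serine/arginine-rich factor, kept a 338-base stretch at 57.2% and 57.5% in Bur-0, against 34.8% and 38.7% in Ler-1 (adjusted p = 0.0252). Its relative SR34 kept 511 bases at 16.1% and 14.4% in Bur-0, against 3.88% and 5.37% in Ler-1 (adjusted p = 0.00972). U2AF65A, the large subunit of the factor that recognises the acceptor region, kept 173 bases at 57.4% and 63.5% in Bur-0, against 37.8% and 35.6% in Ler-1 (adjusted p = 0.0107). UBA2A, an RNA-binding protein, retained an intron of its 3′ untranslated part at 68.5% and 76.7% in Bur-0, against 88.6% and 91.8% in Ler-1 (adjusted p = 0.017). The absolute differences of the 6 events were 5.53 to 23.8 points, and both forms had reads in both accessions.

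The hybrid values of SR30, U2AF65A and UBA2A lay close together. SR30 had 55.4% and 61.7% in Col-0 x Bur-0, against 53.1% and 62.4% in Col-0 x Ler-1. U2AF65A had 44.3% and 64.9% in Col-0 x Bur-0, against 54.7% and 58.9% in Col-0 x Ler-1, and its retained intron of 273 bases 45.2% and 45.3%, against 43.2% and 46.0%. UBA2A had 77.9% and 77.6% in Col-0 x Bur-0, against 80.9% and 73.3% in Col-0 x Ler-1. The hybrid libraries overlapped in the SR30, U2AF65A and UBA2A events and not in SR34. Its 511-base stretch had 15.1% and 13.2% in Col-0 x Bur-0, against 8.87% and 11.4% in Col-0 x Ler-1. A second called SR34 stretch, of 353 bases, had 7.61% and 8.47% in Bur-0, against 2.94% and 2.08% in Ler-1 (adjusted p = 0.0454), but ran the other way in the hybrids, with 4.85% and 5.24% in Col-0 x Bur-0, against 7.0% and 7.37% in Col-0 x Ler-1. None of the 6 events was called between hybrids (edgeR adjusted p of 0.83 or more). Whether these differences are smaller than those between the accessions was not tested. CPK28, a calcium-dependent kinase named after its values had been seen, varied within groups: an intron of 105 bases was retained at 68.7% and 64.5% in Bur-0, against 3.66% and 38.9% in Ler-1 (adjusted p = 0.0214), and at 51.9% and 4.55% in Col-0 x Bur-0, against 57.1% and 15.7% in Col-0 x Ler-1. In both hybrids the library with replicate number 1 was the higher.

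Clock genes gave 2 called of 11 tested. COR27, a cold-regulated repressor of evening clock genes, has AG acceptors 3 bases apart, and the upstream one was used at 69.6% and 77.6% in Bur-0, against 24.8% and 25% in Ler-1 (adjusted p = 3.59e-05). Col-0 lay with Bur-0, at 75.2% and 79.7%. GI, which links the clock to flowering, used a donor 102 bases downstream in 0 of 431 reads in Bur-0, against 5.35% and 5.96% in Ler-1 (adjusted p = 0.00382). Both genes have a daily rhythm in expression, and COR27 had 310 reads at this choice in Bur-0 and 740 in Ler-1.

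Among starch and sugar genes, 4 of 8 were called, 2 of them higher in Bur-0. Beside AMY3, the sugar transporter of the vacuole TMT2 used a downstream donor at 73.7% and 57.5% in Bur-0, against 22.6% and 27.3% in Ler-1, with 18 reads in the first Bur-0 library (adjusted p = 0.048). SBE2.1, a starch branching enzyme, retained an 89-base intron at 16.0% and 15.4% in Bur-0, against 42.4% and 42.5% in Ler-1 (adjusted p = 0.000792). DPE2, which processes maltose in the cytosol, had 0 of 2862 reads in Bur-0, against 0.367% and 0.373% in Ler-1 (adjusted p = 0.046). The absolute differences thus ran from 99.0 points in AMY3 to 0.37 points in DPE2.

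Light signalling gave 7 called events in 2 of 9 tested genes, all lower in Bur-0. In PAT1, 5 overlapping events of the 5′ untranslated part were called, led by a 305-base stretch kept at 54.0% and 55.6% in Bur-0, against 98.3% and 98.6% in Ler-1 (adjusted p = 8.94e-06). Col-0 lay nearer to Bur-0, at 50% and 48.4%. In PHOT2, a blue-light receptor, a 93-base stretch was retained at 84.2% and 71.7% in Bur-0, against 97.0% in both Ler-1 libraries (adjusted p = 0.0289). These shares are set against splicing at a minor acceptor. In the other called PHOT2 event, the acceptor 13 bases upstream had 99.5% and 98.6% in Bur-0, against 99.9% in both Ler-1 libraries, on 776 to 1116 reads per library. Reads of that main acceptor are left out of the retained share, so it does not measure how often the intron was kept. Of 5 tested hormone genes 2 were called, AHP5 and the auxin response factor ARF1, whose 85-base intron was retained at 20.6% and 24% in Bur-0, against 0 of 70 reads in Ler-1 (adjusted p = 0.0134).

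In photosynthesis genes, 5 of 17 were called, mostly with differences of a fraction of a point on deep coverage. In PSAE-1, a subunit of photosystem I, a stretch not annotated as an intron was retained at 98.3% and 97.9% in Bur-0, against 75.4% and 60.3% in Ler-1 (adjusted p = 0.00249). The retained reads were 105 of 105 in Bur-0 and 84 of 121 in Ler-1, the rest being spliced at a minor acceptor. In a called acceptor choice of PSAE-1, that acceptor had a PSI of 0 in both Bur-0 libraries, against 0.0774% and 0.101% in Ler-1, on 19369 to 26114 reads per library. Reads of the main acceptor are left out of the retained share, so it does not measure how often the intron was kept. The other 6 events, in PSAE-1, RBCS1A, CA1, LHCB6 and PSBO1, differed by at most 0.111 points in either direction, on 19775 to 628803 reads per accession. In RBCS1A, CA1, LHCB6 and PSBO1 these were stretches without splice letters in the reference. FAMA, the guard cell regulator, had a called stretch of that kind as well, at 99.3% and 99.2% in Bur-0, against 92.3% and 96.1% in Ler-1 (adjusted p = 0.0317).

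**Figure D3:**
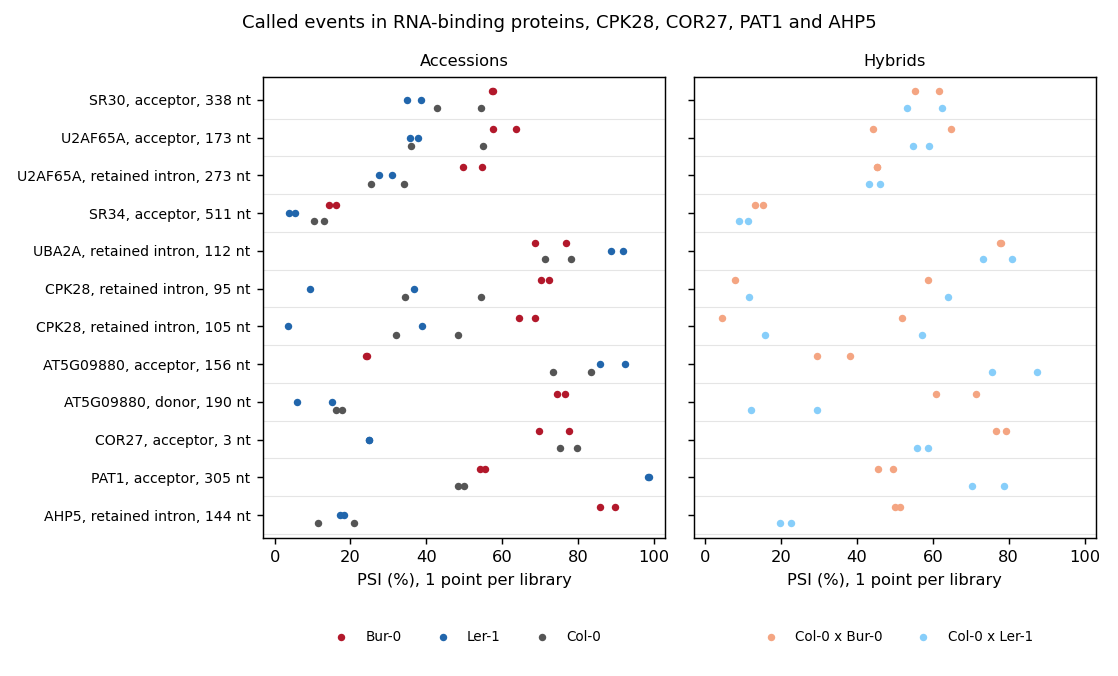
PSI (%) in each library for 12 called events in 9 genes, with accessions on the left and hybrids on the right. Bur-0 and Ler-1 are apart in every row, whereas the hybrid points overlap for SR30, U2AF65A, UBA2A and CPK28 and are apart in the same direction in the other 6 rows.

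By type, the called share was 6.34% for acceptors (114 of 1799), 6.23% for donors (76 of 1219), 7.82% for retained introns and 7.26% for skipped exons, each close to the 6.93% of all events. It was 10.2% on the 5′ untranslated side of genes (79 of 771), 8.44% on the 3′ untranslated side (19 of 225) and 6.17% in coding spans (253 of 4103). In coding spans, 33 of 503 acceptor choices that keep whole codons were called (6.56%), against 46 of 949 that shift the frame (4.85%). For donors the counts were 22 of 272 (8.09%), against 27 of 587 (4.60%). The median absolute difference of the called acceptor choices was 27.4 points for whole codons and 7.73 points for frame shifts.

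The event names give each intron's length in the assembly of each accession. Where a length differed between the Bur-0 and Ler-1 assemblies, 144 of 887 events were called (16.2%), against 227 of 4469 where it was the same (5.08%). For retained introns the shares were 20.2% (43 of 213) and 6.36% (115 of 1808). AMY3 is of the first kind, its longer intron measuring 227 bases in the Bur-0 assembly and 226 in that of Ler-1, and ZML1, CID7 and GTB1 are of the second. A form without any read in 1 accession was present in 761 tested events, and 165 of them were called (21.7%). That class is set by the same counts that were tested, so its share does not describe a kind of event. The Bur-0 mean was strictly nearer to Col-0 than the Ler-1 mean in 143 called events, against 2405 of all tested events. The other 228 called and 2951 tested events include ties and any event without a Col-0 value.

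**Figure D4:**
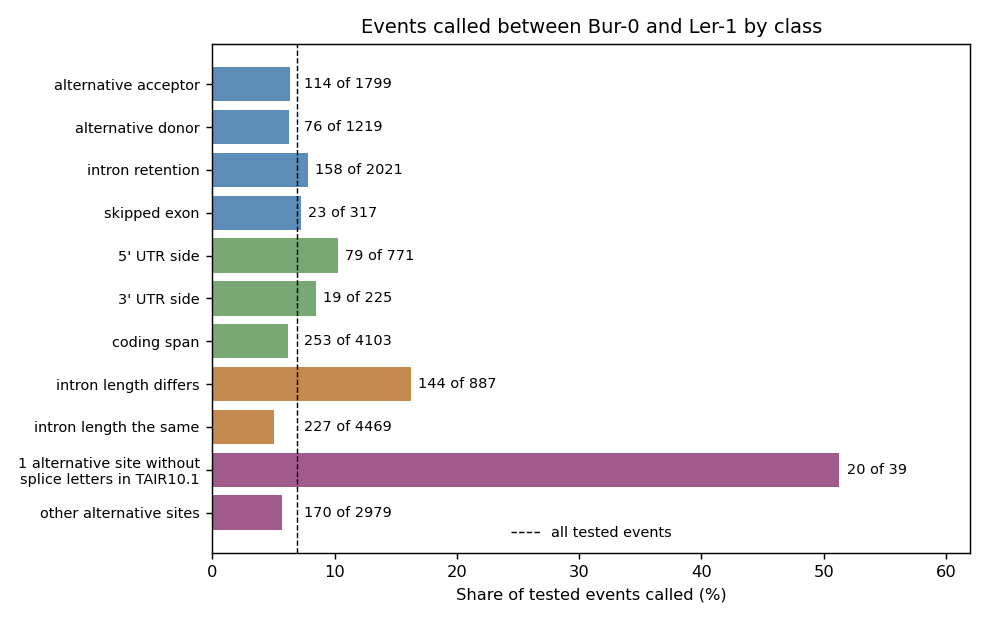
Share of tested events called between Bur-0 and Ler-1 (%), by type, place in the gene, intron length in the assemblies of the accessions and reference letters of the sites, with called and tested numbers beside each bar. The dashed line is the share over all tested events, 6.93%, and the longest bar is for sites without splice letters in TAIR10.1, at 51.3%. Such sites may be listed only because an accession used them, so that bar is not like for like with the others.

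The hybrids carried most of the differences in the same direction. Of the 371 called events, 370 had enough reads in the hybrids, and in 340 of them (91.9%) the difference Col-0 x Bur-0 minus Col-0 x Ler-1 had the sign of Bur-0 minus Ler-1. The sign was the same in 59.3% of all events and in 56.8% of those not called. Among the 249 events of at least 10 points, 236 had the same sign, and the hybrid difference was a median of 0.402 of that between the accessions (quartiles 0.261 and 0.581). Among the 51 of at least 50 points, 49 had the same sign and in 47 the hybrid libraries did not overlap. Over all 370, the hybrids kept the sign without overlap in 269, as did 25.8% of all events, and had the other sign without overlap in 7.

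Between the hybrids themselves, 49 of 5393 events were called (0.909%), and 521 had an unadjusted p under 0.05. Of the 5305 events tested in both, 47 (0.886%) were called between hybrids, and 44 of these (89.8% of the 49) were among the events called between the accessions, of which they are 11.9%, and all 44 had the same sign. AMY3, GTB1, LARP6a, CID7, AT4G38520, MGT2 and AT1G14570 were among them. GTB1 kept its 24 bases at 47.2% and 50.8% in Col-0 x Bur-0, against 98.1% and 98.8% in Col-0 x Ler-1 (adjusted p = 0.000106). LARP6a used the GT donor at 98.8% and 99.5% in Col-0 x Bur-0, against 53.4% and 59.0% in Col-0 x Ler-1 (adjusted p = 0.00017). In both genes the hybrid with the divergent parent lay near the middle between its parents.

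Several hybrids lay far from the middle. ZML1 was at 98.2% and 98.6% in Col-0 x Bur-0, against 76.6% and 75% in Col-0 x Ler-1 (adjusted p = 0.0127), nearer to Col-0 than to Ler-1. AT1G23130 was at 93.0% and 96.3% in Col-0 x Bur-0, against 99.97% and 99.99% in Col-0 x Ler-1 (adjusted p = 0.000452), where 601 reads in Bur-0 and 7853 in Col-0 covered the choice. AT1G27520 was at 84.5% and 87.3%, against 83.1% and 70.5%, a difference of 9.10 points where the accessions differed by 76.5. The position of a hybrid depends on how much RNA each allele gives, which these shares do not measure.

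In 13 called events of at least 10 points the hybrid difference had the other sign, 11 of them retained introns, and in 0 of the 13 were the hybrid libraries apart. ZDS, a desaturase of carotenoid synthesis, used an acceptor 20 bases upstream at 72.2% and 52.2% in Bur-0, against 0 and 4.35% in Ler-1, on 17 to 22 reads per library (adjusted p = 0.00378). In the hybrids it was used at 40.9% and 56.0% in Col-0 x Bur-0, against 47.4% and 66.7% in Col-0 x Ler-1. An intron of AT4G16670, annotated as an auxin canalization protein, was retained at 85.2% and 79.5% in Bur-0, against 23.5% and 18.8% in Ler-1 (adjusted p = 0.000546), and at 42.9% and 69.6% in Col-0 x Bur-0, against 56.3% and 65.3% in Col-0 x Ler-1. Both genes were named after their values had been seen.

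**Figure D5:**
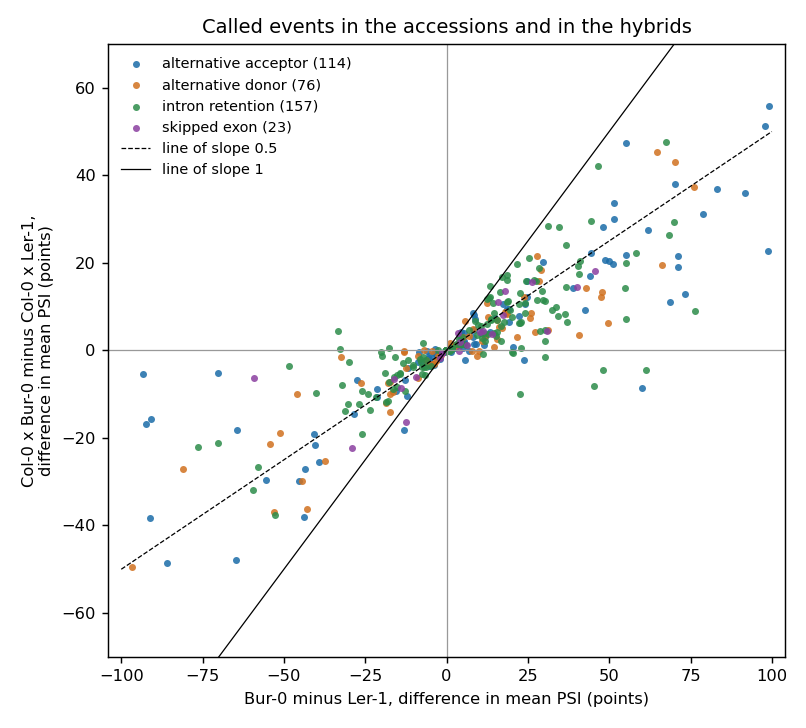
Difference in mean PSI (points) between the hybrids, Col-0 x Bur-0 minus Col-0 x Ler-1 (y axis), against that between the accessions, Bur-0 minus Ler-1 (x axis), for the 370 called events tested in both. In 340 events the signs match, and for events of at least 10 points the median ratio of the hybrid to the accession difference is 0.402. Lines of slope 0.5 (dashed) and 1 are drawn for orientation.

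With 2 libraries per group the calls lean on the spread shared over all events. Without Ler-1 replicate 1 or 2, 54 and 58 events were called, and without Bur-0 replicate 1 or 2, 175 and 190. Whichever library was left out, 44 events stayed called, 42 of them of at least 10 points. For the 36 genes named by rule, every alternative kept the call of the named event in 13 (AMY3, AT4G38520, ATMAK3, CID7, MGT2, AHP5, LARP6a, AT1G14570, GTB1, GIP1, AtkdsA1, AT5G09880 and PAT1), while other called events of some of these genes were lost. The calls in SR30, SR34, U2AF65A and PSBO1 were lost without any 1 of the 4 libraries. Those in AT2G32910, AT1G27520, AT3G26920, AT5G37380, NUFIP, AT3G52050, PSAE-1, GI, RBCS1A, ARF1 and UBA2A were lost without either Ler-1 library, and that in AT1G17145 without Ler-1 replicate 2. For RBCS1A and UBA2A the same held without Bur-0 replicate 1, and for ARF1 without Bur-0 replicate 2. Among the genes named after their values had been seen, those in TMT2, DPE2, FAMA, CA1 and LHCB6 were lost without any 1 of the 4 libraries, as was AT2G46915. Those in AT5G26850, EDM2, AT1G36070, ZDS, AT4G16670, PHOT2 and DIN10 were lost without either Ler-1 library, PHOT2 also without Bur-0 replicate 2 and DIN10 also without Bur-0 replicate 1, and those in IREG1 and PEX11E without Ler-1 replicate 1. The 105-base intron of CPK28 was lost without Ler-1 replicate 1 and without either Bur-0 library. Of the sites without splice letters used in Ler-1, the calls in DEG15 and AT1G16180 were lost without any 1 of the 4 libraries and that in AT3G26080 without either Ler-1 library.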

How the data were processed

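Polyadenylated RNA of the first leaf was sequenced, per the labels' protocols. The deposited count columns are whole reads of the 2 forms of each event, and the authors' deposited PSI, a fraction, equals the second count over both counts plus 1. Per the submitters' processing notes, the build was TAIR10, with HISAT2 (no version) and edgeR 3.0.8 named as tools. How events were defined and reads counted, and with which tool, is not given in the sources used here. No label says that reads kept their strand, so overlapping and antisense genes cannot be told apart, and 13 called events have the reverse-strand letters CT and AC at their ends.

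Events were matched by type, TAIR10 coordinates and locus. Sequences and gene structures came from RefSeq TAIR10.1, in which 95.1% of first-form introns run from GT to AG, the check that both builds share coordinates. Each fit used edgeR 4.0.16 in R 4.3.3 on the 2 counts per library, with a term per library and a form-by-group term, and at least 10 reads per compared library. The same fit was made for the 4 hybrid libraries. On simulated data for the accession comparison, 98 of 100 events with a log2 odds change of 4 and 63 of 100 with one of 2 were recovered. Only events in which both forms were common were changed, and the spread between libraries was a set value, not estimated from these data. The recovery therefore does not carry over to events with a form absent in an accession or to a wider spread. P-values rest on 2 libraries per group and on a spread shared over all events. Limits on a share of 0 use 3 counts and cover counting error only.

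The genes named are the 12 largest rises and 12 largest falls among called, non-overlapping events, 1 per gene, then up to 14 called events of listed genes by smallest adjusted p. The comparison, the members and the lists were chosen with earlier results of these data known. Alternatives were other read minimums, DESeq2 1.42.0, limma 3.58.1 on PSI and on its logit, other scalings, more libraries per fit, a replicate block and leaving out each library.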

Additional observations from a re-analysis of the deposited data

Results flagged for a closer look

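In RBCS1A, the Rubisco small subunit gene, 1 of 2 called events ran in opposite directions in the accessions and the hybrids. A 134-base stretch without splice letters at its ends had a PSI of 99.81% and 99.97% in Bur-0, against 99.9996% and 99.9997% in Ler-1, a difference of -0.111 points. It had 99.9992% and 99.9994% in Col-0 x Bur-0, against 99.97% and 99.92% in Col-0 x Ler-1, a difference of 0.0566 points. In neither contrast of the 134-base stretch did the libraries overlap. The difference between the contrasts was not tested, and the adjusted p between the hybrids was 0.0673 (edgeR quasi-likelihood test). The other event, a stretch of 112 bases, kept its direction, with mean differences of -0.0207 points in the accessions and -0.0182 points in the hybrids. The call of the 134-base stretch between the accessions was lost without Bur-0 replicate 1 and without either Ler-1 library.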

How the results depend on the processing

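The 371 calls became 234 with DESeq2 and 61 with limma on PSI, and 54 to 190 when 1 library was left out. They stayed within 1.5 times with limma on the logit (329), other read minimums (333 and 340), other scalings (364 and 370) and more libraries in the fit (344 and 386). Events higher in Bur-0 numbered 128 with DESeq2, 38 with limma on PSI and 33 to 107 with 1 library left out, and events lower in Bur-0 numbered 23 with limma on PSI and 19 to 83 with 1 library left out. Acceptors gave 23 with limma on PSI (23 to 65 with 1 library left out) and donors 14 (12 to 43). Retained introns gave 88 with DESeq2, 20 with limma on PSI, 102 with limma on the logit and 15 to 72 with 1 library left out. Skipped exons gave 13 with DESeq2, 4 with limma on PSI and 2 to 11 with 1 library left out. Listed genes with a call numbered 5 with limma on PSI and 6 to 11 with 1 library left out. Between the hybrids limma on PSI called 0 events, with 538 at an unadjusted p under 0.05, against 49 with edgeR, and leaving out 1 library gave 15 to 42. Among calls at an adjusted p under 0.01, 95.8% had the same direction in the hybrids. The cause of these changes was not tested. No named event changed direction.

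The labels give the groups the same replicate numbers but do not say what a number stands for. Deviations of same-numbered libraries correlated at 0.0338 in the accessions and 0.148 in the hybrids. The numbers were not taken as pairs in the reported fits, and whether same-numbered hybrid libraries share a batch was not tested. With a replicate block, 213 events were called, 117 higher and 96 lower in Bur-0, with 72 acceptors, 49 donors, 79 retained introns, 13 skipped exons and 13 listed genes, and 139 between the hybrids, against 49 without it. Low read numbers limit AT2G32910, AT1G27520, ATG8E, AT3G26920, AT5G37380 and NUFIP, with fewer than 20 reads in at least 1 library.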

Other observations

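Several called events in chloroplast and signalling genes lie outside the lists and were picked after their values had been seen, with edgeR adjusted p throughout. APE2, the triose phosphate exporter of the chloroplast, retained an intron with a GC donor at 98.4% and 96.9% in Bur-0, against 62.7% and 70.3% in Ler-1 (adjusted p = 4.2e-05). Cpn60beta2, a chloroplast chaperonin subunit, retained an intron in 43 of 212 reads in Bur-0, against 0 of 586 in Ler-1 (adjusted p = 1e-04). In the hybrids it was retained at 14.0% and 29.2% in Col-0 x Bur-0, against 20.3% and 24.2% in Col-0 x Ler-1, where the libraries overlapped. NFU1, a scaffold protein of iron-sulfur clusters, retained a stretch with the reverse-strand letters CT and AC at 78.9% and 78.2% in Bur-0, against 33.6% and 34.8% in Ler-1 (adjusted p = 3.8e-05).

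LDA, the limit dextrinase that debranches starch, had 4 called events, 2 higher and 2 lower in Bur-0. Its 26-base acceptor stretch had 0 of 313 reads in Bur-0, against 16.1% and 7.53% in Ler-1 (adjusted p = 0.00371), and no read in Col-0. KAO2, an oxidase of gibberellin synthesis, retained an intron in 0 of 118 reads in Bur-0, against 24.3% and 22.5% in Ler-1 (adjusted p = 0.00217). AL6, an Alfin-like protein with a PHD finger, kept 27 bases at 99.2% and 99.0% in Bur-0, against 53.9% and 41.2% in Ler-1 (adjusted p = 2.76e-05). AT5G18230, of the NOT family of the mRNA deadenylase complex, kept 6 bases at 99.6% in both Bur-0 libraries, against 20% and 41.8% in Ler-1 (adjusted p = 6.09e-06). MEKK3, a kinase of the MAP kinase cascades, retained an intron at 96.7% and 98.8% in Bur-0, against 56.3% and 58.4% in Ler-1 (adjusted p = 0.000175). The calls in LDA, KAO2 and MEKK3 were lost without either Ler-1 library.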
